A study of Mus musculus with 40 samples.

Results

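The miR-23/27/24 clusters are a pair of paralogous groups of microRNA hairpins, and their 3p products in mouse blood were followed across ageing. The list held 5 mature microRNAs, mmu-miR-23a-3p, mmu-miR-23b-3p, mmu-miR-24-3p, mmu-miR-27a-3p and mmu-miR-27b-3p, out of 1915 microRNAs in the count table, and it was set by name and not by any measured value. Of these, 4 were among the 105 microRNAs with more than 100 reads in at least 20 of 40 libraries. The fifth, miR-27a-3p, exceeded 100 reads in 14 libraries and was tested with a lower limit of more than 1 read in 20 libraries, which 345 microRNAs passed. Total blood was taken from the retro-orbital sinus of single-housed male C57B/6J mice at 4 ages (12, 13.5, 15 and 16.5 months), and small RNA was sequenced in 10 libraries of each. The study describes the later bleeds as following memory tests. The mice were wild type and were anaesthetised with isoflurane for each bleed. The study had a group trained repeatedly in a water maze and a home cage group. The sample labels do not say which group a library came from, and the order of bleeding and training at 12 months is described in different ways. The design was longitudinal, with mice bled repeatedly, but the labels do not tie the libraries of different ages to single animals. The tests therefore treated the 40 libraries as independent, which repeated bleeds of 1 animal are not, and p-values measure the spread between libraries.

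MicroRNAs are short RNAs that guide Argonaute proteins to messenger RNAs, mainly through the seed, bases 2 to 8 from the 5′ end. They are cut from hairpins, and 1 arm of the hairpin is usually kept while the other is degraded. The miR-23, miR-27 and miR-24 hairpins lie side by side and are transcribed together, and the mature products of 1 transcript can still reach different levels through processing and decay. These microRNAs are known in blood cells for roles in lymphocyte and erythroid differentiation, and in vessels for roles in endothelial cells.

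The mature sequences show which members share a seed and where the paralogs part, and so which reads can be told apart. RefSeq (GRCm38.p6) gave the mature sequence for 4 of the 5 members. They are shown 5′ to 3′ with the seed in capitals.
miR-23a-3p: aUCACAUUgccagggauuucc
miR-27a-3p: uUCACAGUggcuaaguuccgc
miR-27b-3p: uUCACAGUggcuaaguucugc
miR-24-3p: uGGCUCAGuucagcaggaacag
The miR-27 paralogs had the same seed and differed at 1 base, C19U from miR-27a-3p to miR-27b-3p, with positions counted from 1 at the 5′ end. The seeds of miR-23a-3p and miR-27a-3p differed at 1 position, U7G. MiR-24-3p had a seed of its own, and its mature sequence was the same from 2 hairpins, so its reads cannot be assigned to 1 cluster. A read that ends before the base that separates miR-27a-3p from miR-27b-3p fits both precursors and may be counted in both rows. No sequence was given for miR-23b-3p, so the base that separates the miR-23 paralogs is not shown here. Whether short reads are counted in both miR-23 rows was not tested.

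The miR-23a cluster lies on chromosome 8 of GRCm38, plus strand, in 404 bases from 84208518 to 84208921, with Mir23a at 84208518 to 84208592, Mir27a at 84208672 to 84208758 and Mir24-2 at 84208815 to 84208921. In GENCODE M21 neither Mir23a nor Mir27a lay in another gene, and the last bases of Mir24-2 overlapped the exon at the start of the long noncoding RNA Gm26532. The miR-23b cluster covers 792 bases of chromosome 13, plus strand, with Mir23b at 63300484 to 63300557, Mir27b at 63300712 to 63300784 and Mir24-1 at 63301208 to 63301275. All 3 lie inside the protein-coding gene 2010111I01Rik on the same strand, Mir23b in an intron and the other two overlapping an annotated exon, and in introns of Fancc on the opposite strand.

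Libraries held between 2469196 and 21386209 counts, with medians of 12498000 at 12 months, 12505000 at 13.5 months, 6196820 at 15 months and 8771190 at 16.5 months. Most reads came from red-cell microRNAs, which is the usual state of total blood. The 6 red-cell markers made up a median of 91.5% of counts at 12 months, 91.9% at 13.5 months, 94.4% at 15 months and 90.4% at 16.5 months, when the duplicated miR-486b rows were left out of the total. All 6 were detected, and their share ranged from 87.8% to 97.9% over all libraries. The scaling factors (TMM, which set the bulk of tested microRNAs equal between libraries) had a median of 0.774 at 15 months against 1.30 at 12 months. With scaling by library totals alone, the 105 microRNAs had a median log2 fold change of −0.84 at 15 against 12 months and 0.65 at 16.5 against 15 months. Values below are therefore given relative to the bulk of tested microRNAs, and a change of sign under library totals is stated where it occurs. In 1 library of 16.5 months the correlation with the others was low (connectivity Z-score −3.27), and it held the fewest counts. The names of the 15-month columns contain a B in 3 libraries and a C in 7, and the 13.5-month names contain an A. The 12-month and 16.5-month names share another form, with a letter of its own for each library. Between ages, form of name cannot be told apart from age in any comparison that includes 13.5 or 15 months. What the form of name stands for is not given in the labels.

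The 5 members differed widely in level. On the scale of log2 CPM (counts scaled to equal library size) with TMM factors, miR-27b-3p was the most abundant, with a mean of 7.67 over 40 libraries and rank 28 among the 105. It was followed by miR-23a-3p at 4.88 (rank 68), miR-24-3p at 4.16 (rank 81) and miR-23b-3p at 3.54 (rank 95), while miR-27a-3p had a mean of 2.90. In reads, miR-27b-3p had 211 to 5421 per library, miR-23a-3p 33 to 945, miR-24-3p 14 to 714, miR-23b-3p 12 to 323 and miR-27a-3p 6 to 214. The paralog that dominated differed between the families. MiR-23a-3p made up 71.3% of all miR-23 reads (63.9% to 79.3% per library), so the chromosome 8 copy was the larger. MiR-27b-3p made up 96.4% of all miR-27 reads (93.3% to 97.8% per library), so there the chromosome 13 copy was the larger. In total blood, fewer cells of a type and less RNA per cell cannot be told apart in any of these levels.

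**Figure D1:**
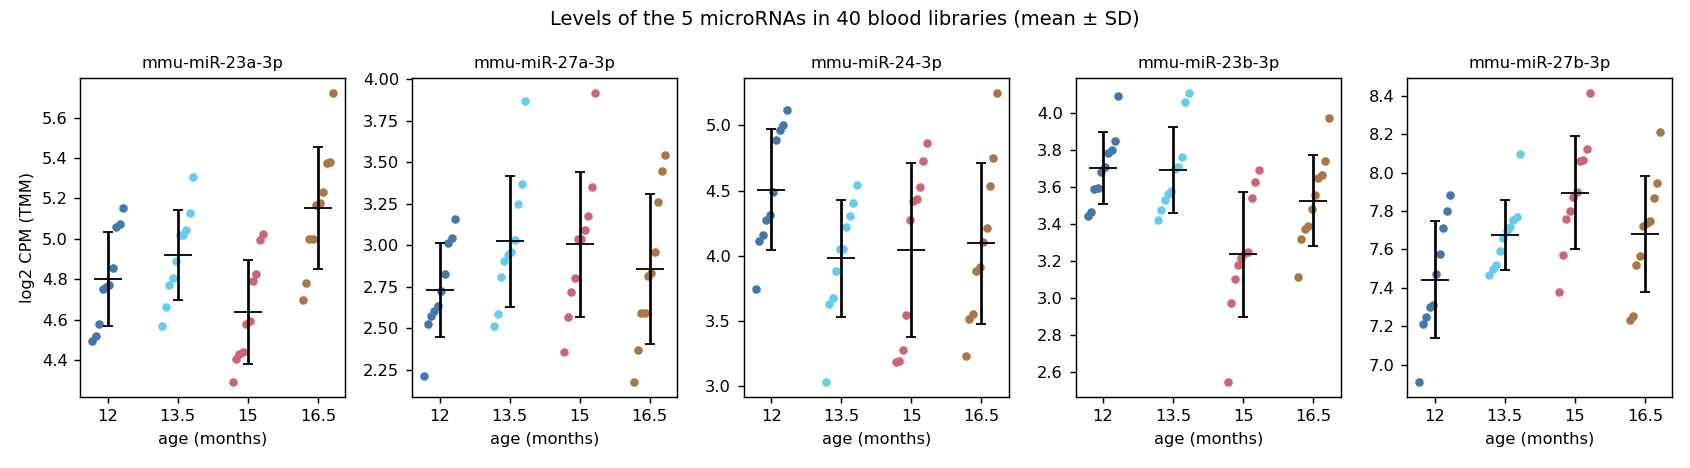
Log2 CPM (vertical axis, TMM factors) of each of the 5 microRNAs in 10 libraries per age (horizontal axis, months), with 1 point per library, set out by value within an age, and bars for the mean and SD. MiR-23a-3p is highest at 16.5 months (mean 5.15) and miR-23b-3p lowest at 15 months (mean 3.23), and the ages overlap in every panel.

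Across the 4 ages, miR-23a-3p, miR-23b-3p and miR-27b-3p changed by edgeR's test and miR-24-3p did not pass it. With edgeR's quasi-likelihood test on the counts and Benjamini-Hochberg adjustment over the 105, the adjusted p over age was 0.0018 for miR-23a-3p, 0.0061 for miR-23b-3p, 0.018 for miR-27b-3p and 0.18 for miR-24-3p. So 3 of 4 tested members were called, where 61% of all 105 microRNAs were called, a share near the members' own. The call of miR-27b-3p was lost with the low filter (edgeR adjusted p 0.073), with no filter (0.51), with library totals (0.42) and with the 3 B libraries alone (0.29). That of miR-23b-3p was lost with no filter (edgeR adjusted p 0.10) and with the B (0.14) or the C (0.099) libraries alone, and that of miR-23a-3p with no filter (0.067). By limma voom with library quality weights (limma voom below) miR-24-3p passed as well (adjusted p 0.042). MiR-27a-3p did not pass in the low filter (edgeR adjusted p 0.37), where 39.1% of 345 microRNAs were called. None of the 4 was called over age when age was entered as a straight line.

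MiR-23a-3p, the larger miR-23 paralog, was highest at 16.5 months. Its lowest, median and highest log2 CPM were 4.49, 4.77 and 5.15 at 12 months, 4.57, 4.95 and 5.30 at 13.5 months, 4.29, 4.59 and 5.02 at 15 months, and 4.70, 5.17 and 5.72 at 16.5 months. The level was therefore lowest at 15 months and rose after it, and 6 of 10 libraries of 16.5 months lay above the highest of 15 months while the ranges still overlapped. The log2 fold change at 16.5 against 15 months was 0.53 ± 0.12 (SE, edgeR adjusted p 0.001). At 16.5 against 12 months it was 0.37 ± 0.12 (SE, edgeR adjusted p 0.024), with 8 of 10 libraries above the 12-month mean. That second call was lost with library totals (0.24, adjusted p 0.57) and with no filter (0.32, adjusted p 0.36). The value at 16.5 against 15 months grew to 1.16 with library totals.

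MiR-23b-3p, its paralog from chromosome 13, was lowest at 15 months. Its lowest, median and highest log2 CPM were 3.44, 3.69 and 4.09 at 12 months, 3.42, 3.64 and 4.11 at 13.5 months, 2.54, 3.23 and 3.69 at 15 months, and 3.11, 3.52 and 3.97 at 16.5 months. All 10 libraries of 15 months lay below the 12-month mean and 7 of them below the lowest of 12 months, so the ranges overlapped in the other 3. The level fell by 0.43 on the log2 scale against 12 months (SE 0.12, edgeR adjusted p 0.0063) and by 0.43 against 13.5 months (SE 0.12, edgeR adjusted p 0.0031). Counts were low at 15 months, with a median of 47.5 reads against 197.5 at 12 months. At 15 months 0 of 10 libraries exceeded 100 reads, against 10 at 12 months, 8 at 13.5 months and 6 at 16.5 months. MiR-23b-3p thus passed the main filter only through the other ages. With the low filter the falls were −0.46 (edgeR adjusted p 0.012) and −0.44 (edgeR adjusted p 0.0083). Against 12 months, the 3 libraries with a B in the name gave −0.42 (adjusted p 0.18) and the 7 with a C gave −0.37 (adjusted p 0.067), so neither set alone passed. Against 13.5 months the values were −0.40 (adjusted p 0.092) and −0.32 (adjusted p 0.058). The call was lost in both comparisons with no filter (adjusted p 0.074 and 0.11). With library totals the falls were −1.17 (adjusted p 0.00043) and −1.15 (adjusted p 0.00034), and with DESeq2 the second was −0.27 (adjusted p 0.043).

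MiR-27b-3p, the most abundant member and from the same cluster as miR-23b-3p, was highest at 15 months. Its lowest, median and highest log2 CPM were 6.91, 7.39 and 7.88 at 12 months, 7.46, 7.68 and 8.10 at 13.5 months, 7.38, 7.89 and 8.41 at 15 months, and 7.23, 7.73 and 8.21 at 16.5 months. At 15 months 9 of 10 libraries lay above the 12-month mean and 5 above the highest of 12 months, with the ranges overlapping. The log2 fold change at 15 against 12 months was 0.45 ± 0.13 (SE, edgeR adjusted p 0.0063). It was 0.24 (adjusted p 0.42) with the 3 libraries with a B in the name and 0.58 (adjusted p 0.0057) with the 7 with a C. With no filter it was 0.34 (edgeR adjusted p 0.36), so the call was lost. Under library totals the sign turned to −0.29 (adjusted p 0.33). The rise was thus seen relative to the bulk of tested microRNAs and not relative to the sum of reads. The red-cell share of that sum was highest at 15 months. The part of the red-cell share in this result was not tested.

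MiR-24-3p, made from both clusters, varied most among libraries of 1 age. Its lowest, median and highest log2 CPM were 3.74, 4.40 and 5.12 at 12 months, 3.03, 4.05 and 4.55 at 13.5 months, 3.19, 4.35 and 4.87 at 15 months, and 3.23, 4.01 and 5.25 at 16.5 months. It was highest at 12 months in the mean, and every later age overlapped it. The log2 fold change at 13.5 against 12 months was −0.54 ± 0.23 (SE, edgeR adjusted p 0.076), which did not pass, while DESeq2 (−0.59, adjusted p 0.032) and limma voom (−0.64, adjusted p 0.010) passed. It passed in 9 of 15 alternatives in all, where the values ran from −0.64 to −0.37. MiR-27a-3p, the smaller miR-27 paralog, had median log2 CPM of 2.68, 2.95, 3.04 and 2.82 at the 4 ages in order. Its values spanned 2.17 to 3.92 over all libraries, and no age stood apart from another.

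By pair of ages, the share of members called was above that of all tested microRNAs in 2 of 6 pairs and below it in 4. At 13.5 against 12 months 0 of 4 were called by edgeR, where 29.5% of the 105 were called. Of the 4, 1 had an unadjusted p under 0.05, and DESeq2 and limma voom each called 1. At 15 against 12 months 2 of 4 were called, miR-27b-3p higher and miR-23b-3p lower, where the background was 23.8%. At 16.5 against 12 months miR-23a-3p alone was called, again with a background of 23.8%. At 15 against 13.5 months miR-23b-3p alone was called, with a background of 47.6%. At 16.5 against 15 months miR-23a-3p alone was called, with a background of 28.6%. At 16.5 against 13.5 months edgeR called 0 of 4, with 1 at an unadjusted p under 0.05, 1 called by DESeq2 and 1 by limma voom, where the background was 40%. The backgrounds are those of edgeR, and those of DESeq2 and limma voom are not given. Comparisons that share an age also share its libraries.

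**Figure D2:**
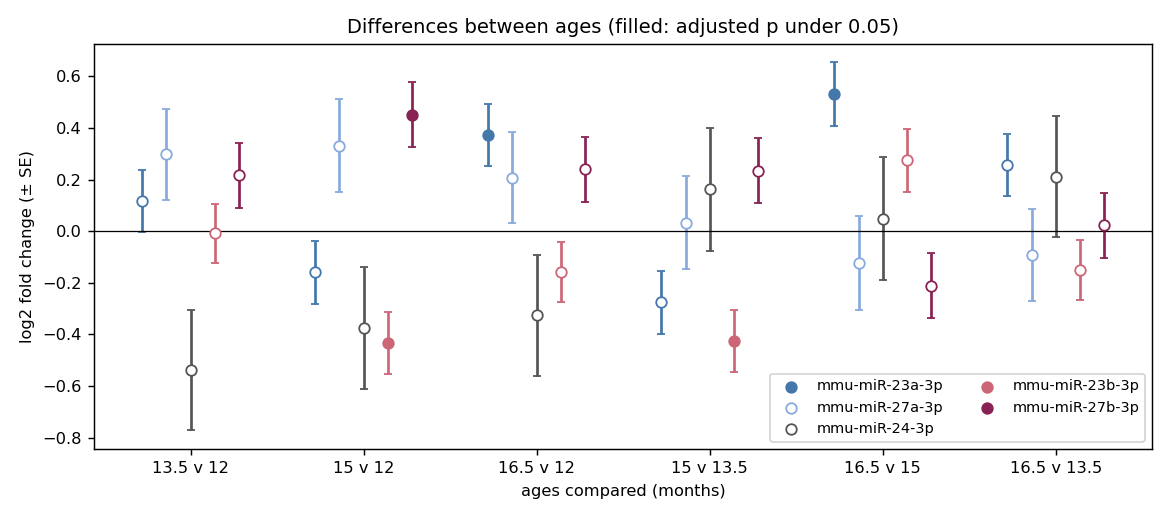
Log2 fold change (vertical axis, points, with SE bars) of each microRNA for 6 pairs of ages (horizontal axis, months), from edgeR fits to 40 libraries, with miR-27a-3p from the low filter. Filled points have an adjusted p under 0.05, among them miR-23b-3p (−0.43) and miR-27b-3p (0.45) on opposite sides of 0 at 15 against 12 months.

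Ratios of 2 members within 1 library do not depend on the scaling factor and were compared by two-sided permutation tests (100000 resamples, or exact where a group had fewer than 10 libraries), with adjustment over 36 tests, of which 16 passed at an adjusted p under 0.05. The share of ratios of any 2 of the 105 microRNAs that would pass this test was not computed. The count of 16 is therefore not a trait shown to belong to these members. The smallest adjusted p belonged to the paralogs of the miR-23 family and to neighbours of the miR-23b cluster. The ratio of miR-23a-3p to miR-23b-3p rose with age. Its lowest, median and highest values were 1.77, 2.08 and 2.56 at 12 months, 1.95, 2.45 and 3.37 at 13.5 months, 2.12, 2.62 and 3.73 at 15 months, and 2.64, 3.12 and 3.81 at 16.5 months. The ranges at 12 and 16.5 months did not overlap, and all 10 libraries of 16.5 months lay above the highest of 12 months. Among all 5460 ratios of 2 of the 105 microRNAs, 4.14% did not overlap between these ages. The difference at 16.5 against 12 months was 0.52 ± 0.080 on the log2 scale (SE, permutation adjusted p 0.00024). Smaller differences passed at 16.5 against 13.5 months (0.39 ± 0.095, SE, permutation adjusted p 0.0039), at 15 against 12 months (0.29 ± 0.094, SE, permutation adjusted p 0.013) and at 16.5 against 15 months (0.23 ± 0.087, SE, permutation adjusted p 0.039). Neighbouring steps from 12 to 13.5 and from 13.5 to 15 months did not pass. Without the C libraries the rise at 15 against 12 months was 0.22 (exact adjusted p 0.25), and the step at 16.5 against 15 months did not pass with either set alone. Whether reads too short to separate the miR-23 paralogs entered both rows was not tested.

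The ratio of miR-23b-3p to miR-27b-3p, from hairpins of the same cluster, fell to 15 months and rose again. Its lowest, median and highest values were 0.051, 0.076 and 0.099 at 12 months, 0.051, 0.061 and 0.082 at 13.5 months, 0.027, 0.040 and 0.049 at 15 months, and 0.041, 0.054 and 0.078 at 16.5 months. At 15 months all 10 libraries lay below the lowest of both earlier ages. Among all 5460 ratios 3% did not overlap between 15 and 12 months and 5.04% between 15 and 13.5 months. On the log2 scale the ratio fell by 0.91 against 12 months (SE 0.13, permutation adjusted p 0.00024) and by 0.66 against 13.5 months (SE 0.12, permutation adjusted p 0.00024). Both passed within each set of names, at −0.68 and −0.44 with the 3 libraries with a B (exact adjusted p 0.021 and 0.023) and at −1.0 and −0.76 with the 7 with a C (exact adjusted p 0.00062 in both, from the smallest p this test can give). From 15 to 16.5 months it rose by 0.50 ± 0.13 (SE, permutation adjusted p 0.0041), in 10 of 10 libraries against the 15-month mean. That rise was 0.28 with the B libraries alone (exact adjusted p 0.22). The ratio at 16.5 months was still 0.41 lower on the log2 scale than at 12 months (SE 0.12, permutation adjusted p 0.013).

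Between neighbours of the miR-23a cluster, the ratio of miR-23a-3p to miR-27a-3p had medians of 4.09, 3.75, 3.06 and 4.95 at the 4 ages in order. It fell by 0.46 on the log2 scale at 15 against 12 months (SE 0.15, permutation adjusted p 0.018) and rose by 0.67 ± 0.16 at 16.5 against 15 months (SE, permutation adjusted p 0.0039), with all 10 libraries above the 15-month mean. With the 3 B libraries alone these values were −0.32 (exact adjusted p 0.25) and 0.53 (exact adjusted p 0.090). At 16.5 against 13.5 months it was 0.39 ± 0.12 higher (SE, permutation adjusted p 0.013). In both clusters, then, the miR-23 product was lower against its miR-27 neighbour at 15 months than at 12 and 16.5 months.

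No shift between the miR-27 paralogs was detected, and whether they differ in this from the miR-23 paralogs was not tested. The ratio of miR-27a-3p to miR-27b-3p had medians of 0.039, 0.038, 0.035 and 0.037, and none of its 6 differences passed (permutation adjusted p from 0.24 to 0.69). The differences lay between −0.22 (SE 0.15) and 0.065 (SE 0.14) on the log2 scale. Reads of miR-27a-3p were few, and reads too short to reach base 19 can enter both rows.

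MiR-24-3p was lower after 12 months relative to its cluster partners. Its ratio to the sum of the miR-27 paralogs had medians of 0.12, 0.079, 0.075 and 0.083 at the 4 ages in order. On the log2 scale it fell by 0.77 at 13.5 months (SE 0.18, permutation adjusted p 0.0028), by 0.90 at 15 months (SE 0.21, permutation adjusted p 0.0031) and by 0.64 at 16.5 months (SE 0.21, permutation adjusted p 0.014), each against 12 months and each with all 10 libraries below the 12-month mean. The ranges overlapped with those of 12 months at every later age. The ratio to the sum of the miR-23 paralogs fell by 0.61 at 13.5 months (SE 0.17, permutation adjusted p 0.0087) and by 0.61 at 16.5 months (SE 0.15, permutation adjusted p 0.0055), each in 9 of 10 libraries against the 12-month mean, while the difference of −0.20 (SE 0.20) at 15 months did not pass.

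**Figure D3:**
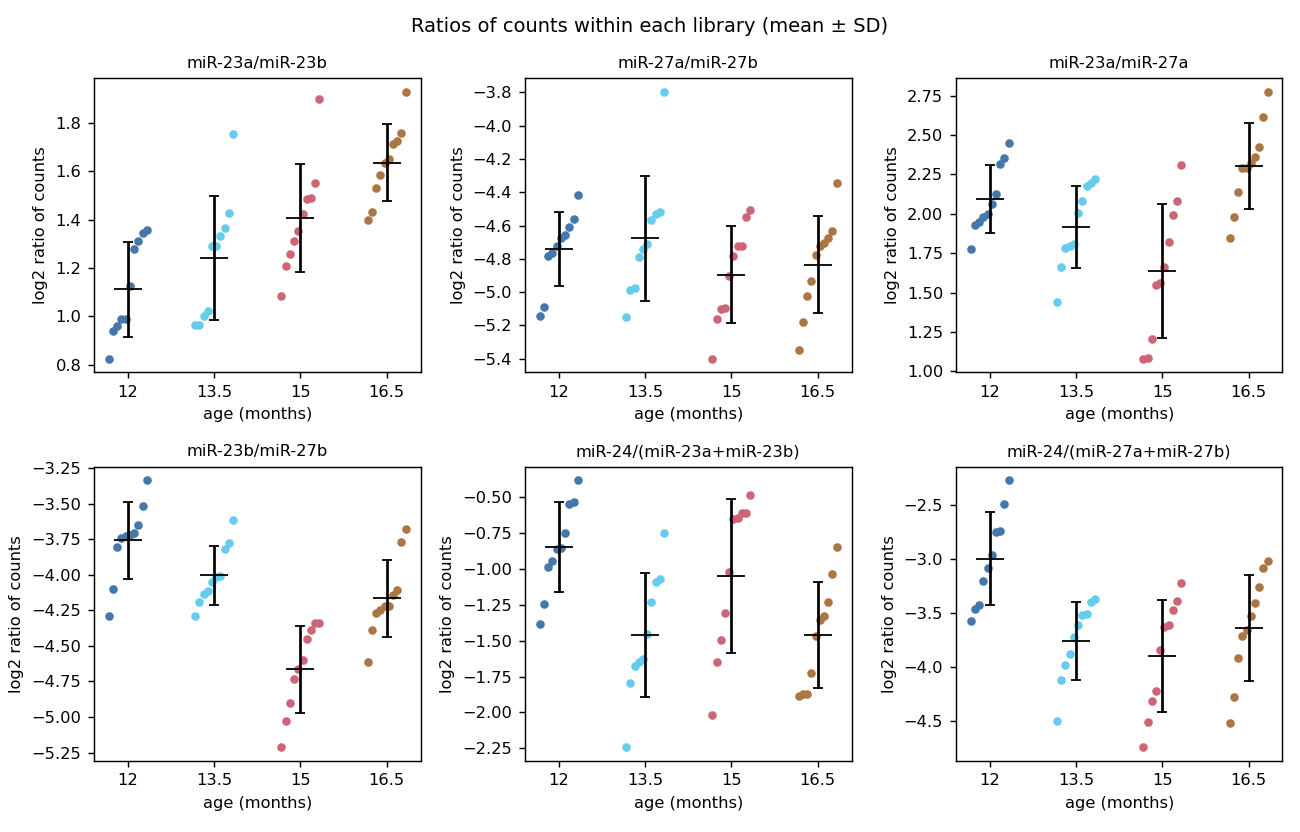
Log2 ratio of counts within each library (vertical axes, 0.5 added to each count) for 6 pairs of members or sums, by age in months, with 1 point per library, set out by value within an age, and bars for the mean and SD. MiR-23a/miR-23b rises from a mean of 1.11 to 1.64, and miR-23b/miR-27b is lowest at 15 months (−4.67) with all 10 libraries below both earlier ages.

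The other arms of these hairpins were scarce. MiR-27b-3p made up 99.9% of the reads of both miR-27b arms, and the 5p arms of miR-23a, miR-23b and miR-27a had 9, 3 and 12 reads in all 40 libraries together. The 5p arms of the miR-24 hairpins differ in sequence beyond their first 16 bases, and so, unlike miR-24-3p, they can be told apart by cluster.
miR-24-1-5p: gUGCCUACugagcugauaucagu
miR-24-2-5p: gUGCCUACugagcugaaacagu
With the seed again in capitals, both carried the same seed. Of 740 reads in these rows, 722 (97.6%) were of miR-24-2-5p from chromosome 8, and 18 were of miR-24-1-5p. Among the reads of miR-24-2-5p and miR-24-3p together, the 5p arm had 6.94% at 12 months (95% exact Clopper-Pearson interval 6.19% to 7.75%), 6.09% at 13.5 months (5.15% to 7.14%), 11.1% at 15 months (9.27% to 13.2%) and 7.28% at 16.5 months (6.28% to 8.39%), pooled over 10 libraries. These intervals cover counting error only and not the spread between libraries.

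Of 9 other arms and overlapping products listed, 4 passed the low filter and 1 was called over age, miR-27b-5p (edgeR adjusted p 0.046), where 39.1% of the 345 were called. It had 35 reads at 12 months, 36 at 13.5 months, 1 at 15 months and 20 at 16.5 months, summed over 10 libraries each. Its share of the reads of both miR-27b arms was 0.116% at 12 months (95% exact Clopper-Pearson interval 0.0810% to 0.162%) and 0.00854% at 15 months (0.000216% to 0.0476%), the age at which miR-27b-3p was highest. The call rests on these few reads and was lost with no filter and with median-ratio factors. MiR-24-2-5p did not pass over age (edgeR adjusted p 0.11). In the same fit it was called at 15 against 13.5 months (log2 fold change 0.94, edgeR adjusted p 0.031). That call was lost with no filter (edgeR adjusted p 0.066), and the share of the 345 called in this pair is not given. At 15 against 12 months its sign turned under library totals (0.36 to −0.31).

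The miR-24 hairpins overlap the miR-3074 hairpins on the opposite strand, and 20 bases of miR-3074-5p are complementary to miR-24-3p. MiR-3074-5p was nearly as abundant as miR-24-3p, with 7361 against 9230 reads, and it is shown here because of that overlap.
miR-3074-5p: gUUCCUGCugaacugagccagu
The mean log2 CPM of miR-3074-5p was 4.03 ± 0.21 at 12 months, 4.03 ± 0.13 at 13.5 months, 4.14 ± 0.19 at 15 months and 3.99 ± 0.14 at 16.5 months (SD, n = 10 each). It did not pass over age (edgeR adjusted p 0.63). With library totals it passed (edgeR adjusted p 0.011), and its sign turned at 15 against 12 months (0.10 to −0.66), at 15 against 13.5 months (0.11 to −0.65) and at 16.5 against 15 months (−0.14 to 0.47). With TMM factors its spread within an age was below that of miR-24-3p, whose SD lay between 0.45 and 0.67. Whether the counting used the strand of the reads is not given in the sources used here. MiR-3074-1-3p had 1867 reads and miR-3074-2-3p 3.

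**Figure D4:**
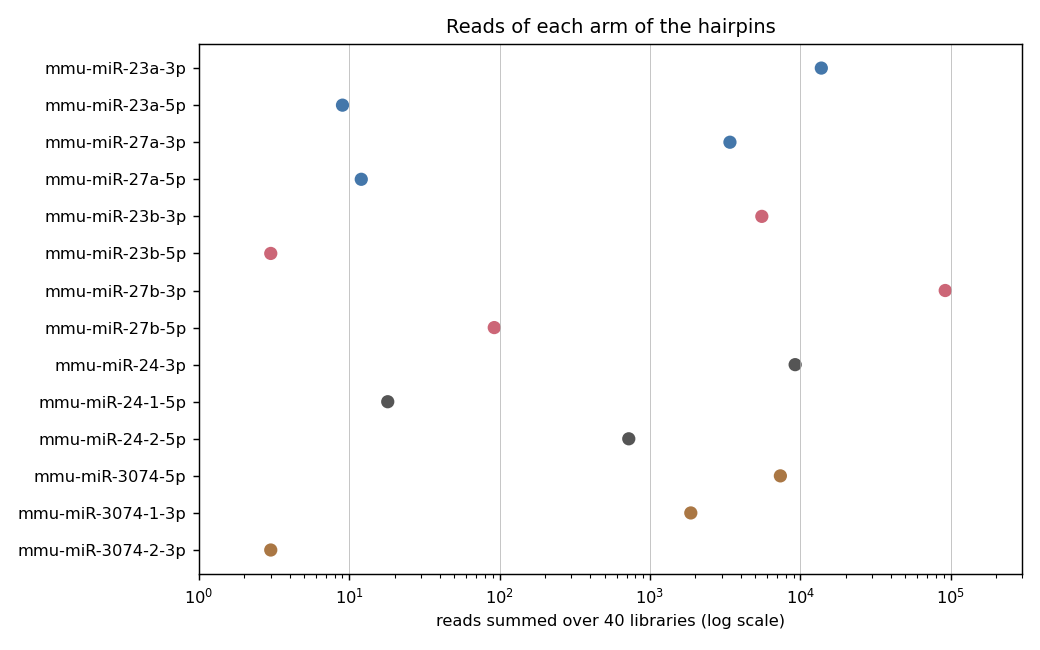
Reads summed over 40 libraries (horizontal axis, log scale) for each arm of the 6 hairpins and for the overlapping miR-3074 products (vertical axis), 1 point each, blue for the chromosome 8 cluster, red for the chromosome 13 cluster, grey for miR-24 and brown for miR-3074. The 3p arms of miR-23a, miR-23b, miR-27a, miR-27b and miR-24 lie between 3400 and 91929 reads, the 5p arms between 3 and 722.

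Within ages, libraries high in 1 member tended to be high in the others. Deviations of log2 CPM from the age means correlated positively in all 10 pairs of members (n = 40, permuted within ages, all adjusted p under 0.05 over 10 pairs). Among the members, Pearson's r was highest for miR-24-3p with miR-27a-3p, at 0.68 (permutation adjusted p 6e-05, Spearman's rho 0.69, permutation adjusted p 5e-05), and 0.63 without the 2 libraries farthest from the median. It was lowest for miR-23a-3p with miR-27b-3p, at 0.42 (permutation adjusted p 0.011, Spearman's rho 0.38, permutation adjusted p 0.021), and 0.37 without 2 libraries. The order of r did not follow the clusters. It was 0.66 for miR-23a-3p with miR-23b-3p across the clusters, 0.64 for miR-23a-3p with miR-27a-3p and 0.51 for miR-23b-3p with miR-27b-3p within them. Within single ages all 40 values were positive, from 0.19 to 0.92. With library totals in place of TMM factors r lay between 0.90 and 0.95, and all points share the library's depth, red-cell share and scaling factor.

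**Figure D5:**
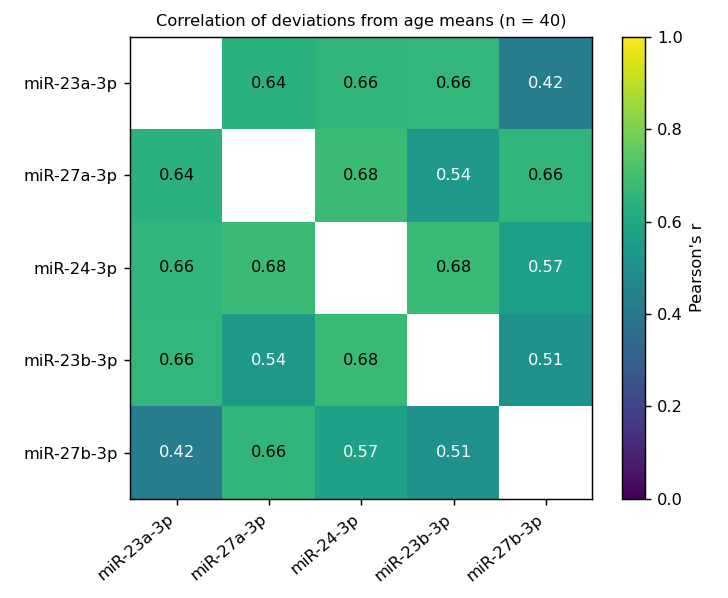
Pearson's r (colour and printed value) of deviations of log2 CPM from the age means for each pair of the 5 microRNAs on both axes, over 40 libraries, with the diagonal left blank. All 10 pairs are positive, from 0.42 to 0.68.

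For every member, the highest correlation with a microRNA outside the list was above its highest within the list. The microRNAs outside were also far more numerous to choose from. Over 40 libraries and 101 microRNAs compared, the 3 with the highest r were miR-151-5p (0.77), miR-451a (0.72) and miR-186-5p (0.69) for miR-23a-3p, and miR-451a (0.71), miR-21a-5p (0.68) and miR-146b-5p (0.67) for miR-23b-3p. For miR-24-3p they were miR-146b-5p (0.84), miR-29a-3p (0.80) and miR-21a-5p (0.78), and for miR-27b-3p miR-21a-5p (0.78), miR-30e-3p (0.75) and miR-29a-3p (0.74). For miR-27a-3p they were miR-29a-3p (0.82), miR-15a-5p (0.73) and miR-30e-5p (0.72). The median r over the 101 lay between 0.10 and 0.25. Of the red-cell markers only miR-451a appears in these lists, and of the myeloid markers only miR-21a-5p. The r of the other markers is not given here, so these lists do not tie a member to a cell type.

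Among microRNAs typical of other blood cells, 0 of 3 tested myeloid markers, 2 of 2 lymphoid markers and 1 of 1 platelet and endothelial marker were called over age by edgeR, as were 3 of 5 red-cell markers. Of all 105 microRNAs tested, 61% were called over age, and these lists are too short to be told apart from that share. The 4 myeloid markers summed to median CPM of 2871, 2362, 2943 and 2589 at the 4 ages in order, within 1486 to 4479 over all libraries. The 3 lymphoid markers summed to 243, 373, 294 and 357 (101 to 873), and the 4 platelet and endothelial markers to 40.9, 48.1, 32.3 and 30.7 (19.8 to 77.9). All of these markers were detected, and the liver marker miR-122-5p had a median of 0 at every age. Their part in the members' values was not tested.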

How the data were processed

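Small RNA of total mouse blood was prepared with the TruSeq kit and sequenced as single-end reads, in 10 libraries at each of 4 ages. The authors discarded short reads, counted reads per mature microRNA with miRDeep2 against miRBase precursors with no mismatch (mm10 per the labels), summed products of several loci and deposited raw counts. FastQC 0.11.5 is named in the submitters' processing notes. The deposited normalized signal is the counts divided by size factors and was not tested. Groups came from the ages in the labels, and table columns name the age.

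Counts were fitted with edgeR 4.0.16 (R 4.3.3) using TMM factors, glmQLFit and glmQLFTest, all 40 libraries, age as a factor, and Benjamini-Hochberg adjustment with a threshold of 0.05. The main filter kept 105 microRNAs with more than 100 reads in 20 libraries and the low filter 345 with more than 1. Levels are log2 CPM with a prior count of 2. The SE was taken as the size of the log2 fold change divided by the root of the F statistic. Ratios used counts plus 0.5. In correlations the smallest p that 100000 permutations can give is 1e-05. The fit was tested on simulated data. A chi-square test of pairs within an age found no duplicated library. The members, lists, ratios and marker sets were chosen with earlier results of these data known. All members, their other arms and the 3 closest microRNAs of each are named.

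Alternatives were DESeq2 1.42.0, limma 3.58.1 with voom and library quality weights, median-ratio factors, library totals and other filters. Others were factors of unwanted variation (RUVs), linear age, fits to each pair of ages alone, and removal of the outlying library or miR-486 rows. Fits with only the B or C libraries of 15 months, without edgeR's Poisson bound on p and with a block, for ratios as an exact sign-flip test, were chosen after seeing the data. Positions came from RefSeq and GENCODE M21. Depth limits the precision, since amplified reads without molecular identifiers are not independent molecules.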

Additional observations from a re-analysis of the deposited data

Results flagged for a closer look

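In 2 of 44 sets of 10 libraries 1 value lay far from the rest by Dixon's criterion, and chance passes about 1 in 20 such sets. The first was miR-27b-3p at 13.5 months, where the highest library, at 8.10 log2 CPM, stood above the next at 7.77 (gap over range 0.521). The second was the ratio of miR-27a-3p to miR-27b-3p at 13.5 months, where the highest library, at −3.80 on the log2 scale, stood above the next at −4.52 (gap over range 0.534). These were different libraries.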

How the results depend on the processing

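The ratio call at 16.5 against 12 months for miR-23a/miR-23b held with a pseudocount of 1 and without the outlying library (0.52 to 0.55). Those at 15 against 12 and 13.5 months for miR-23b/miR-27b held with a pseudocount of 1 and with the B or C libraries alone. Apart from the block, the other alternatives do not touch these libraries. The count of members called over age (3) became 0 with no filter or linear age, 1 with the B libraries, 2 with library totals, the low filter or the C libraries, and 4 with voom. At 13.5 against 12 months (0) it was 1 with DESeq2, median-ratio factors, voom, only the ages compared, the B or the C libraries, and 2 with 1 or 2 RUVs factors. At 15 against 12 months (2) it was 0 with no filter or the B libraries, 1 with the C libraries and 3 with library totals or 1 RUVs factor. At 16.5 against 12 months (1) it was 0 with library totals or no filter and 2 with 1 or 2 RUVs factors. At 15 against 13.5 months (1) it was 2 with DESeq2, median-ratio factors, library totals, voom, 1 or 2 RUVs factors, without miR-486 and with only the ages compared, and 0 with no filter or the B libraries. At 16.5 against 15 months (1) it was 2 with library totals and with 1 or 2 RUVs factors. At 16.5 against 13.5 months (0) it was 1 with DESeq2, median-ratio factors, voom, 1 RUVs factor and the C libraries. Other arms called (1) were 0 with no filter or median-ratio factors and 3 with library totals. The share of all tested microRNAs called is not given for these settings, apart from 39.1% with the low filter over age. A change in these counts is therefore not a trait shown to belong to the members. The causes were not tested. Signs turned under library totals for miR-27b-3p (−0.29 for 15 v 12 months, −0.48 for 15 v 13.5, 0.35 for 16.5 v 15, −0.13 for 16.5 v 13.5), for miR-27a-3p (−0.36, −0.67 and 0.46 at the first 3) and for miR-24-3p at 15 v 13.5 months (−0.50, and −0.16 with the B libraries). Values near 0 turned for miR-24-3p at 16.5 v 15 months (−0.038 with DESeq2, −0.037 with median-ratio factors, −0.11 with voom, −0.049 without miR-486, −0.034 with only the ages compared, −0.17 with the C libraries), miR-23b-3p at 13.5 v 12 months (0.068 and 0.043 with 1 and 2 RUVs factors, 0.0063 without miR-486), miR-27b-3p at 16.5 v 15 months (0.0052 with 2 RUVs factors) and the ratio of miR-24-3p to the miR-23 sum at 16.5 v 13.5 months (0.0011 with a pseudocount of 1, 0.043 without the outlying library). Removal of that library changed no count of members called. A number that opens the column names is shared by 1 library of each age, but the labels do not give it. Same-numbered libraries correlated at −0.87 to 0.86 (60 pairs, median −0.028). These values also carry each library's depth and red-cell share, so they cannot decide whether the number marks the animal. The main tests did not use the number as a pairing. With it as a replicate block, 3 members were called over age, and 1 at 13.5 against 12 months, miR-24-3p (−0.56, edgeR adjusted p 0.037). For ratios the block gave 17 calls, 15 of them among the 16 made without it. It ended the call of miR-23a/miR-23b at 16.5 v 15 months (exact adjusted p 0.074), and the calls at 16.5 v 12 months for that ratio and at 15 months for miR-23b/miR-27b held (exact adjusted p 0.014, from the smallest p of 10 pairs). Reads of miR-23b-3p and miR-27a-3p were fewest at 15 months, which limits their precision there.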
